A study of Homo sapiens with 4 samples.

Results

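The 80 genes described here are nuclear genes for subunits of oxidative phosphorylation, chosen by gene symbol from the 26348 genes of the expression table: protein-coding genes named NDUFA, NDUFB, NDUFC, NDUFS or NDUFV with a number, SDHA to SDHD, the UQCR genes, CYC1, 10 named COX genes and the ATP5 genes. Complex I held 36 of them, complex II 4, complex III 10, complex IV 11 and complex V 19. NDUFA4 was counted with complex IV, where its protein is found, although its symbol reads as complex I. The filter on low values was passed by 79 of the 80, the exception being ATP5MGL.

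The study sequenced polyadenylated RNA from 2 human cell lines, A549 and 293T, after exposure to a magnetic field or without it. A549 is an established human lung cancer line (non-small cell), and 293T is an established human renal epithelial line. The exposed A549 group and the exposed 293T group had 2 h in the field, the control A549 group and the control 293T group had none, and each group is 1 GEO sample with 3 libraries. The labels give neither how strong the field was, nor its frequency or source, nor whether the controls were sham-handled.

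Oxidative phosphorylation takes place in the inner mitochondrial membrane. Complex I oxidises NADH and complex II oxidises succinate, and both pass electrons to ubiquinone. Complex III moves the electrons on to cytochrome c, and complex IV passes them to oxygen. Complexes I, III and IV pump protons, and complex V, the ATP synthase, uses the resulting gradient to make ATP. Complex II is built wholly from nuclear genes, whereas the other complexes combine nuclear subunits with subunits encoded in mitochondrial DNA. Within complexes I and III a conserved core carries the flavin, the iron-sulfur clusters and the haems, and around it sit accessory subunits without redox groups. Cancer lines such as A549 are known to rely on respiration to different degrees.

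Whole read counts recovered from the deposited FPKM (fragments per kilobase of exon, scaled to library size) gave 37171616 to 38883963 counts per library, a highest total 1.046 times the lowest. The 8 markers of A549 summed to 4723 to 4909 FPKM in A549 libraries and to 6.65 to 10.6 in 293T libraries. The 6 markers of 293T summed to 31.1 to 35.8 FPKM in A549 libraries and to 137.5 to 144 in 293T libraries, so the labels of the lines matched their markers. Among 7 markers of cells that neither line should hold, PTPRC, CD3E, PECAM1 and VWF averaged under 0.01 FPKM in all groups. The list summed to 23 to 26.4 FPKM in exposed A549, 25.1 to 25.5 in control A549, 4.07 to 4.34 in exposed 293T and 4.47 to 4.95 in control 293T, nearly all of it from CD68 and COL1A1. COL1A1 averaged 2.8 FPKM in exposed A549 and 1.69 in control A549 and was called higher (log2 fold change 0.48, adjusted p = 0.00335 with limma), CD68 was not called, and the part of either in the results was not tested. Exposed replicate 3 lay nearest to the controls of its line on the first principal component, in A549 and in 293T. No label ties the 3 libraries of a group to separate cultures, so a p-value here reflects variation between libraries that may be technical. In bulk RNA, fewer cells with a transcript and less of it per cell cannot be told apart.

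Per length, the nuclear subunits were expressed over a wide range. ATP5F1B, the catalytic beta subunit of ATP synthase, had the highest mean over all libraries, 549.9 FPKM. COX6A1, a small subunit of cytochrome c oxidase, followed with 387.4 FPKM. NDUFS5, an accessory subunit, led complex I with 234 FPKM, UQCRH, the acidic hinge protein, led complex III with 236 FPKM, and SDHB, the iron-sulfur subunit, led complex II with 86.7 FPKM. The lowest means were 6.97 FPKM for NDUFA5 in complex I, 12.8 for SDHC in complex II, 17.2 for UQCRB in complex III and 58.6 for COX7B in complex IV. ATP5F1E, the epsilon subunit of complex V, averaged 0.997 FPKM, from 59 to 228 counts per library, and the gene overlaps the read-through gene SLMO2-ATP5E and TUBB1, so its count is uncertain. ATP5MGL, a further gene for a subunit of the g type, was listed at 0 in all 6 A549 libraries and reached at most 2 counts in a 293T library. FPKM is divided by the length of all exons of a gene together, which was 8710 bases for UQCRB and 303 bases for ATP5ME, and levels of genes with long alternative exons therefore read low.

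In A549 cells, more nuclear subunits were higher than lower after exposure, and the changes were small. At an adjusted p under 0.05, 19 of the 79 members tested were higher in exposed A549 (24.1%), against 13.3% of all 13811 genes tested, and 5 were lower (6.33%), against 26.9% of all genes. In either direction 40.2% of all genes were called. The exposed libraries lay above the controls without overlap for 17.1% of all genes in A549 and 19.1% in 293T. They lay below without overlap for 32.6% and 30.8%. Calls come from limma on log2(FPKM + 1) with Benjamini-Hochberg adjustment over all genes tested, and every fold change below is on that scale. The members' median log2 fold change was 0.06, from -0.17 for UQCRFS1 to 0.27 for NDUFC2, and the median of all genes was -0.04. Estimates lay above 0 for 61 members and below 0 for 18, and for all genes 5466 lay above and 8303 below. Members share the scaling of each library, so their signs are not independent.

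Complex I had 10 of 36 members called higher and 2 lower in exposed A549, with a median log2 fold change of 0.05. The 10 were all accessory subunits: NDUFA2, NDUFA8, NDUFA12, NDUFB2, NDUFB3, NDUFB4, NDUFB9, NDUFB11, NDUFC2 and NDUFS6, with log2 fold changes from 0.09 to 0.27. The calls of NDUFB9, NDUFB3, NDUFB4 and NDUFA12 held under 8, 10, 12 and 14 of 22 alternatives (adjusted p up to 0.777, 0.172, 0.221 and 0.129). The exposed and control libraries of NDUFA12 overlapped. NDUFS6, which lies near the iron-sulfur chain of the peripheral arm, had 107, 102 and 106 FPKM in exposed A549, against 92.4, 99.7 and 90.4 in control A549. Its lowest exposed library was above its highest control library (log2 fold change 0.16, SE 0.04, adjusted p = 0.00725 with limma). NDUFB2, a subunit of the membrane arm, had 120, 116 and 109 FPKM in exposed A549 and 105, 104 and 102 in control A549 (0.15, SE 0.04, adjusted p = 0.0064 with limma). Its groups did not overlap either. The 2 called lower were NDUFS1 and NDUFV3, a small subunit beside the NADH-oxidising flavoprotein. NDUFV3 had 4.43, 4.64 and 4.64 FPKM in exposed A549, against 5.2, 5.3 and 4.98 in control A549 (-0.14, SE 0.04, adjusted p = 0.0102 with limma), and the call ended under quantile normalization and under median centring, with adjusted p between 0.00347 and 0.0912 over all alternatives.

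Complex II had 2 of its 4 members called higher in exposed A549. SDHB, which carries the iron-sulfur clusters, had 72.4, 74.3 and 73.6 FPKM in exposed A549, against 65.9, 70.3 and 66.4 in control A549 (log2 fold change 0.12, SE 0.03, adjusted p = 0.00683 with limma). The call ended under quantile normalization (adjusted p = 0.0509). SDHC, a haem-binding membrane anchor, was the other, and its values follow below. SDHA, the flavoprotein that oxidises succinate, had 23, 23.6 and 23.8 FPKM in exposed A549 and 23.7, 23.2 and 23.6 in control A549, and the groups overlapped (log2 fold change 0.00, SE 0.03). SDHD, the other anchor, varied from 30.4 to 36.5 FPKM in exposed A549 and from 27.5 to 41.1 in control A549, a spread that left its standard error at 0.14.

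Complex III was split. UQCRH and UQCRQ, small subunits without redox groups, were higher in exposed A549, and the Rieske protein UQCRFS1, cytochrome c1 (CYC1) and UQCRC2, a core protein, were lower. UQCRH had 165, 156 and 156 FPKM in exposed A549 and 145, 144 and 154 in control A549 (log2 fold change 0.11, SE 0.03, adjusted p = 0.0176 with limma), and the call ended under 6 of 22 alternatives, among them without exposed A549 replicate 1 or control A549 replicate 1 or 2 (adjusted p up to 0.15). UQCRC2 had 85.7, 85.8 and 95.1 FPKM in exposed A549 and 95.6, 99.7 and 95 in control A549 (-0.12, SE 0.05, adjusted p = 0.0477 with limma). Its highest exposed library exceeded its lowest control library, and the call held under 9 of 22 alternatives, with adjusted p between 0.00701 and 0.267. It ended, among others, without any one of exposed A549 replicates 1 and 2, exposed 293T replicate 2 or any of the 6 control libraries.

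Complex IV had 3 of 11 members called higher and none lower, and all 11 estimates were above 0, with a median log2 fold change of 0.08; with quantile normalization 7 of 11 were, and with equal sums without the mitochondrially encoded genes 10 of 11. COX8A, a small subunit, had 218, 217 and 205 FPKM in exposed A549 and 193, 185 and 193 in control A549 (0.16, SE 0.03, adjusted p = 0.00229 with limma), a call that ended under quantile normalization (adjusted p = 0.102). NDUFA4 had 71, 69.3 and 66.2 FPKM in exposed A549 and 61.4, 65.6 and 65.2 in control A549 (0.10, SE 0.04, adjusted p = 0.0392 with limma), and the call held under 12 of 22 alternatives (adjusted p up to 0.253). It ended, among others, without exposed replicate 1 or 2 or control replicate 1 or 3 of A549 or control replicate 3 of 293T. COX6C was the remaining call. In complex V, 2 of 18 members tested were higher and none lower: ATP5MC2, one of the genes for the rotating c-ring, and ATP5ME, subunit e of the membrane part. The ATP5MC2 call held under 13 of 22 alternatives (adjusted p up to 0.235) and ended, among others, without any 1 of the exposed A549 replicates. ATP5ME had 129, 139 and 124 FPKM in exposed A549 and 116, 124 and 118 in control A549, and its groups did not overlap, although both reach 124 FPKM when rounded (0.13, SE 0.04, adjusted p = 0.0188 with limma). The call ended under 6 of 22 alternatives, among them without exposed A549 replicate 2 or control A549 replicate 1 or 3 (adjusted p up to 0.353).

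Which members were called in A549 depended on the scale and on single libraries. With each library centred on its median the counts were 37 higher and 1 lower, with quantile normalization 11 and 5, and with sums set equal without the 13 mitochondrially encoded genes 10 and 6. Of all genes, 19.5% were higher and 18.3% lower with median centring and 17.4% and 20.2% with quantile normalization. With the equal sums 10.4% of all genes were higher and 32.4% lower. Under quantile normalization the members' share called higher was thus below that of all genes. The members' counts were 12 and 2 without exposed A549 replicate 1 and 12 and 3 without control A549 replicate 1. Of all genes, 10.9% were higher and 21.7% lower in the first of these fits and 12.6% and 23.3% in the second. Without exposed A549 replicate 2, control A549 replicate 3 or control 293T replicate 3, 3 members were called lower. In those fits 22.4%, 21.8% and 26.2% of all genes were lower. Of the 24 calls, 7 held under all 22 alternatives: NDUFA2, NDUFA8, NDUFB2, NDUFB11, NDUFC2, NDUFS6 and UQCRFS1.

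In 293T cells, 15 of 79 members were called higher after exposure (19%), against 13.7% of all genes tested, and 4 were called lower (5.06%), against 24.2% of all genes, of which 38% were called in either direction. The members' median log2 fold change was 0.05, from -0.18 for CYC1 to 0.21 for ATP5IF1, and the median of all genes was -0.03. By complex, the counts higher and lower were 7 and 2 of 36 in complex I, 1 and 0 of 4 in complex II, 1 and 2 of 10 in complex III, 3 and 0 of 11 in complex IV, and 3 and 0 of 18 in complex V. As in A549, all 11 estimates of complex IV were above 0, with a median of 0.08, and 8 of 11 were with quantile normalization. Of all genes in 293T, 5673 estimates lay above 0 and 8076 below.

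ATP5IF1, the inhibitor that blocks reverse action of ATP synthase, had 74, 76.2 and 74.2 FPKM in exposed 293T, against 66.2, 62.7 and 65.4 in control 293T. The groups did not overlap (log2 fold change 0.21, SE 0.06, adjusted p = 0.013 with limma), and the call ended without control 293T replicate 2 (adjusted p between 0.00146 and 0.0527 over all alternatives). ATP5F1B, already the most abundant member, had 632, 648 and 647 FPKM in exposed 293T and 598, 601 and 602 in control 293T (0.10, SE 0.03, adjusted p = 0.00967 with limma), and the call ended under quantile normalization. COX5B, a subunit on the matrix side of complex IV, had 139, 149 and 139 FPKM in exposed 293T and 119, 132 and 126 in control 293T (0.17, SE 0.04, adjusted p = 0.00501 with limma). Its exposed libraries were all above its control libraries, and the call held under all alternatives. The other members called higher in 293T were the complex I accessory subunits NDUFA1, NDUFA8, NDUFB5, NDUFB10, NDUFB11, NDUFC2 and NDUFS5, with SDHC, UQCRQ, COX6A1, COX6C and ATP5MJ. The calls of NDUFB10, COX6A1, ATP5MJ and NDUFA1 held under 13, 15, 15 and 16 of 22 alternatives, and those of NDUFS5 and NDUFB5 under 19 and 20.

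Single libraries also set how many members passed in 293T: 5 were called higher without exposed 293T replicate 2, and 8 without control 293T replicate 1 or without control 293T replicate 3. Of all genes, 10.4%, 10.5% and 11.3% were higher in these fits, each time above the members' share. With sums set equal without the mitochondrially encoded genes, 7 members were higher and 7 lower, against 11.4% and 27.4% of all genes. With quantile normalization 13 members were higher and 3 lower, against 17.4% and 19% of all genes. In both settings the members' share called higher was below that of all genes. Of the 19 calls in 293T, 4 held under all 22 alternatives: COX5B, CYC1, NDUFS1 and UQCRFS1.

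**Figure D1:**
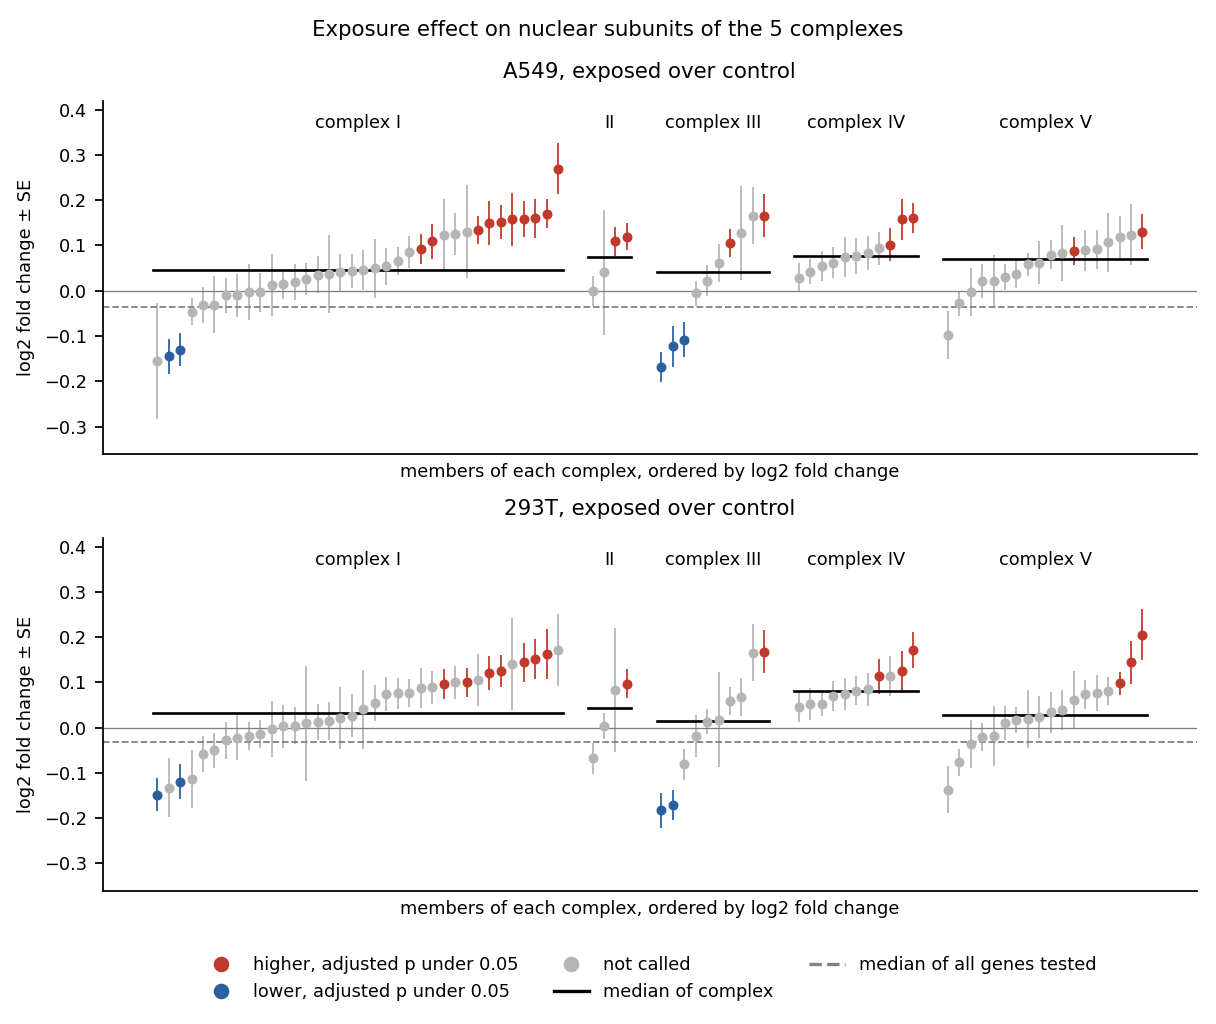
Log2 fold change of exposed over control libraries for each of the 79 members tested, grouped by complex and ordered within it, in A549 (top) and 293T (bottom). Points are limma estimates with standard errors, red and blue points passed an adjusted p of 0.05, black lines are the complex medians and the dashed line is the median of all 13811 genes tested, at -0.04 in A549 and -0.03 in 293T; all 11 complex IV estimates lie above 0 in both lines on this scale, against 7 and 8 of 11 with quantile normalization.

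In both lines, 9 members were called in the same direction. NDUFA8, NDUFB11, NDUFC2, SDHC, UQCRQ and COX6C were higher, which is 31.6% of the members called higher in A549 and 40% of those in 293T, while for all genes these shares were 47.5% and 46%. NDUFS1, UQCRFS1 and CYC1 were lower, 60% of the members called lower in A549 and 75% of those in 293T, while for all genes they were 52.8% and 58.6%. No member was called in opposite directions. Among all genes this was also rare: 65 of the 1837 called higher in A549 were lower in 293T, and 88 of the 3711 called lower were higher.

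UQCRFS1, the Rieske iron-sulfur protein that takes electrons from ubiquinol, had 51.4, 50 and 50.7 FPKM in exposed A549, against 57.5, 57.3 and 56.4 in control A549. In 293T it had 31.5, 30.5 and 33 FPKM in exposed cells, against 35.1, 35.3 and 36.8 in control cells. Exposed libraries were below control libraries in both lines without overlap. The log2 fold change was -0.17 (SE 0.03, adjusted p = 0.00172 with limma) in A549 and -0.17 (SE 0.03, adjusted p = 0.00198 with limma) in 293T, and both calls held under all 22 alternatives.

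CYC1, the haem protein that receives the electron from the Rieske protein, had 82.9, 83.3 and 81.9 FPKM in exposed A549, against 90.6, 87 and 90.3 in control A549 (log2 fold change -0.11, SE 0.04, adjusted p = 0.0401 with limma). In 293T it had 75.1, 68.4 and 73.3 FPKM in exposed cells and 86, 79.3 and 81.2 in control cells (-0.18, SE 0.04, adjusted p = 0.00316 with limma). Neither pair of groups overlapped. The A549 call held under 13 of 22 alternatives, with adjusted p between 0.0078 and 0.29; it ended, among others, without any one of exposed A549 replicates 1, 2 and 3, control A549 replicates 1 and 3, and control 293T replicate 3.

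NDUFS1, the largest core subunit of complex I with iron-sulfur clusters of the electron path, had 10.1, 10.3 and 10.7 FPKM in exposed A549, against 11.1, 11.6 and 11.6 in control A549 (log2 fold change -0.13, SE 0.04, adjusted p = 0.0141 with limma). In 293T it had 12.9, 13.5 and 13.9 FPKM in exposed cells, against 14.9, 15.1 and 15.1 in control cells (-0.15, SE 0.04, adjusted p = 0.00793 with limma). The exposed libraries were the lower ones in both lines. The A549 call ended without exposed A549 replicate 1, with quantile normalization and with median centring (adjusted p between 0.00404 and 0.141 over all alternatives).

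Among the subunits higher in both lines, NDUFC2, a membrane-arm accessory subunit of complex I, had 8.16, 6.98 and 7.17 FPKM in exposed A549, against 6.24, 5.61 and 6.12 in control A549. In 293T it had 10.1, 9.89 and 9.56 FPKM in exposed cells, against 8.47, 8.53 and 9.1 in control cells. The groups did not overlap in either line, and the log2 fold changes were 0.27 (SE 0.06, adjusted p = 0.0024 with limma) in A549 and 0.16 (SE 0.06, adjusted p = 0.0378 with limma) in 293T. The 293T call ended without exposed 293T replicate 1 or 2 or control 293T replicate 1 or 2, without the filter, as TPM and with equal sums without the mitochondrially encoded genes, and over all alternatives its adjusted p lay between 0.0175 and 0.116. Reads of NDUFC2 can be shared with the read-through gene NDUFC2-KCTD14, which overlaps it.

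NDUFB11, a membrane-arm subunit encoded on the X chromosome, had 39.8, 39.7 and 36.9 FPKM in exposed A549, against 33.6, 34.6 and 35.6 in control A549 (log2 fold change 0.16, SE 0.04, adjusted p = 0.0107 with limma). In 293T it had 73.1, 70 and 65.2 FPKM in exposed cells, against 62.8, 62.3 and 62.9 in control cells (0.14, SE 0.04, adjusted p = 0.0193 with limma). NDUFA8, a cysteine-rich subunit facing the intermembrane space, had 40.9, 40.3 and 42.8 FPKM in exposed A549, against 36, 36.9 and 36.9 in control A549 (0.17, SE 0.03, adjusted p = 0.00121 with limma). Exposed libraries were the higher ones each time. In 293T, NDUFA8 had 62.3, 65 and 64.7 FPKM in exposed cells, against 58, 60.3 and 60.6 in control cells (0.10, SE 0.03, adjusted p = 0.0265 with limma). The 293T call of NDUFB11 ended without exposed 293T replicate 1 or 2 or control 293T replicate 2 (adjusted p between 0.00315 and 0.0816 over all alternatives). That of NDUFA8 ended without exposed 293T replicate 2 or 3 or control 293T replicate 1 and with sums set equal without the mitochondrially encoded genes (adjusted p between 0.0106 and 0.107).

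UQCRQ, a small subunit that binds cytochrome b, had 50.7, 45.7 and 46.9 FPKM in exposed A549, against 43.6, 42.7 and 41.1 in control A549 (log2 fold change 0.17, SE 0.05, adjusted p = 0.0149 with limma). In 293T it had 56.6, 59.4 and 55.1 FPKM in exposed cells, against 49.5, 53.7 and 48.9 in control cells (0.17, SE 0.05, adjusted p = 0.0155 with limma). Without exposed replicate 1 or control replicate 3 of A549, or without exposed replicate 2 or control replicate 1 or 3 of 293T, the call in that line ended, and the adjusted p lay between 0.0048 and 0.0697 in A549 and between 0.00855 and 0.0682 in 293T over all alternatives. UQCRQ thus moved opposite to the Rieske protein and cytochrome c1 of its own complex in these libraries.

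SDHC had 10.3, 10.5 and 10.1 FPKM in exposed A549, against 9.51, 9.54 and 9.41 in control A549 (log2 fold change 0.11, SE 0.03, adjusted p = 0.0157 with limma), and 16.3, 16.6 and 15.9 FPKM in exposed 293T, against 15.1, 15.2 and 15.1 in control 293T (0.10, SE 0.03, adjusted p = 0.029 with limma). COX6C, a small membrane subunit of complex IV, had 75.4, 73.9 and 75.4 FPKM in exposed A549, against 62.1, 70.9 and 68.6 in control A549 (0.16, SE 0.04, adjusted p = 0.0144 with limma), and 103, 111 and 106 FPKM in exposed 293T, against 96.5, 95.4 and 101 in control 293T (0.13, SE 0.04, adjusted p = 0.0433 with limma). All 4 of these pairs of groups were free of overlap, as were 17.1% of all genes in A549 and 19.1% in 293T with exposed libraries higher. The genes were picked by their calls, so the lack of overlap is no separate evidence. Both SDHC calls ended with equal sums without the mitochondrially encoded genes and with each line fitted alone, and also without exposed replicate 2 or control replicate 3 in A549, and in 293T without exposed replicate 1 or 2 or any of the 3 control replicates, with adjusted p up to 0.0778 in A549 and 0.104 in 293T. For COX6C the A549 call ended only with quantile normalization (adjusted p = 0.0506, from 0.00587 over the alternatives), and the 293T call ended under 10 of 22 alternatives, with adjusted p between 0.0114 and 0.162. Among them were the fits without the filter, with equal sums without the mitochondrially encoded genes, without exposed replicate 2 or 3 or control replicate 1 or 2 of 293T, and without exposed replicate 1, 2 or 3 or control replicate 3 of A549.

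**Figure D2:**
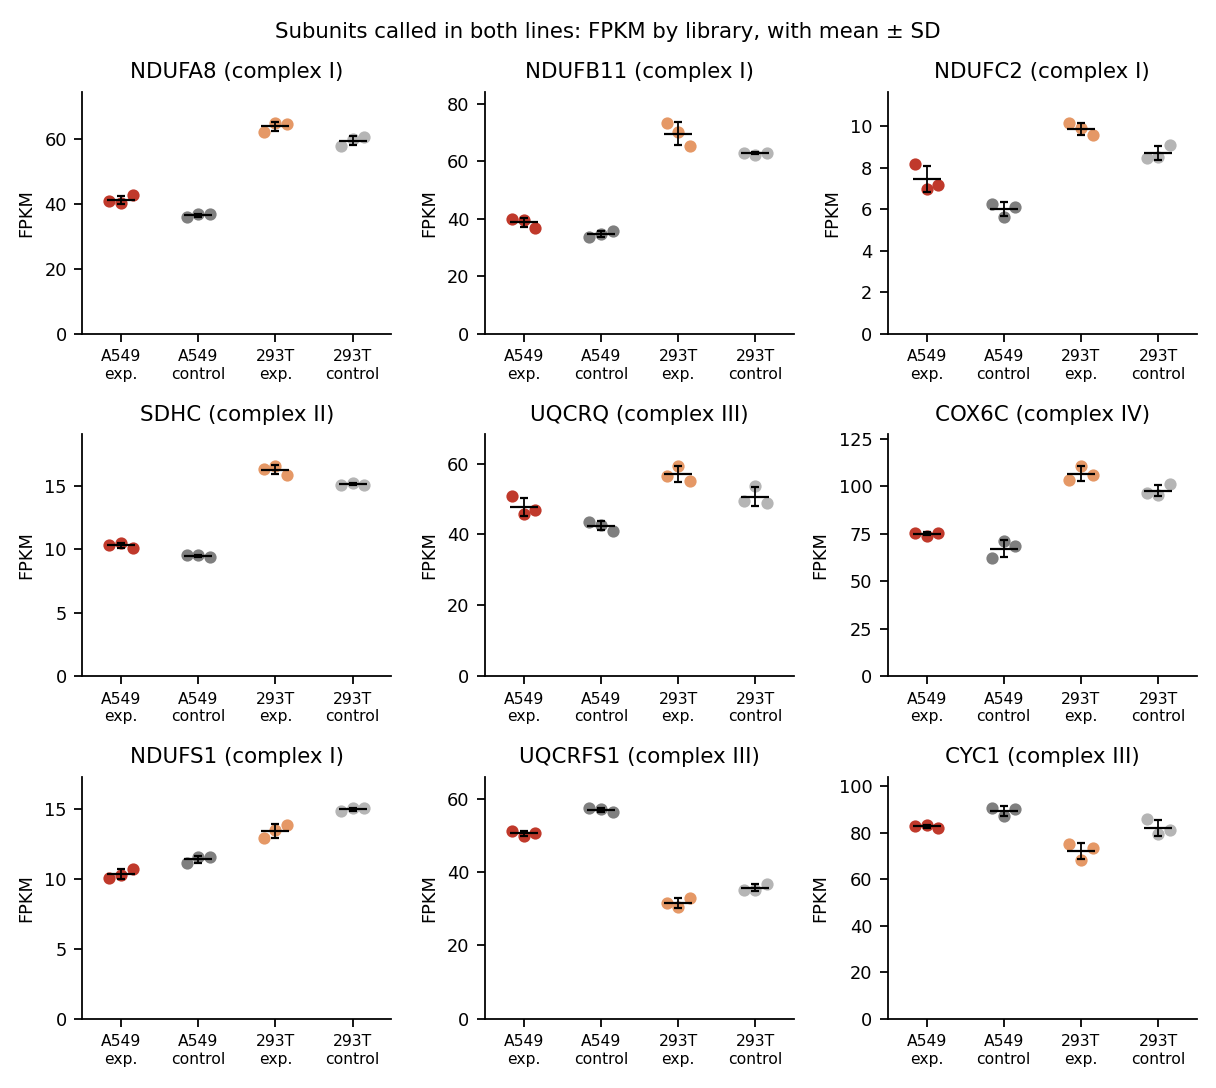
FPKM of the 9 members called in both lines, with a point for each of the 3 libraries of a group and a bar for the mean ± SD, exposed beside control in each line. NDUFA8, NDUFB11, NDUFC2, SDHC, UQCRQ and COX6C have all exposed libraries above the controls of the same line, and NDUFS1, UQCRFS1 and CYC1 have them below. Of all genes, 17.1% lay above and 32.6% below in this way in A549, and 19.1% and 30.8% in 293T.

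Promoters of 4 of these 9 genes are printed to show which short motifs lie in the listed promoters of subunits that rose and of subunits that fell. UQCRQ and NDUFB11 were higher and UQCRFS1 and NDUFS1 lower in both lines. The sequences are RefSeq promoters on GRCh38.p14, 250 bases before to 50 after the start that the promoter table uses, written in the direction of transcription. For NDUFB11 that start lies inside the annotated gene, so its window is not at the 5′ end of the gene. Capitals mark matches, on either strand, to the motif of the ETS family (CCGGAAG), to that of NRF1 (GCGCA, any base, GCGC) or to that of YY1 (AANATGGC).
UQCRQ, chr5:132866392-132866691, plus strand: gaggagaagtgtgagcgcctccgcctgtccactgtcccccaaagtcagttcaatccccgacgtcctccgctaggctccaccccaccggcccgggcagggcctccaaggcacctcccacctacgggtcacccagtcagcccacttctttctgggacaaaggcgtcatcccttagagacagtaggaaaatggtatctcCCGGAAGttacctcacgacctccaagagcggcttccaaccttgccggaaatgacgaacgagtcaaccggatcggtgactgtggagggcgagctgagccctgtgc
NDUFB11, chrX:47144653-47144952, minus strand: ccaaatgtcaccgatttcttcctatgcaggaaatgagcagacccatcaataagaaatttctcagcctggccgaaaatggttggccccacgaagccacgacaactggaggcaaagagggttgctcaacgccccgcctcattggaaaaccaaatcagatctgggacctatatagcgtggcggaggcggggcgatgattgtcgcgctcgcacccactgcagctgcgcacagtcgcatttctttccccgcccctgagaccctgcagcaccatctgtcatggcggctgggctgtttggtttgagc
UQCRFS1, chr19:29213102-29213401, minus strand: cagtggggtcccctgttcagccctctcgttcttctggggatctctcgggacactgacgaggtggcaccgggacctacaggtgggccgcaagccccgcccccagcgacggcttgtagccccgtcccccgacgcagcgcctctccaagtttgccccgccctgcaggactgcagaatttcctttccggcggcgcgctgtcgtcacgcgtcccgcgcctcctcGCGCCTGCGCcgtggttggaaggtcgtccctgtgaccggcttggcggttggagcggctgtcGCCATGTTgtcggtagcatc
NDUFS1, chr2:206159395-206159694, minus strand: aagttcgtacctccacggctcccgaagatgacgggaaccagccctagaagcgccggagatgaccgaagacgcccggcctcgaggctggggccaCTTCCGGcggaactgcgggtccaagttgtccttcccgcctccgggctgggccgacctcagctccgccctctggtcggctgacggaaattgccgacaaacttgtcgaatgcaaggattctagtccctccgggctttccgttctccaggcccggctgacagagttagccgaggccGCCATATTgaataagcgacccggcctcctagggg

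NRF1 and the ETS factor GABP are known activators of nuclear respiratory genes. The UQCRQ promoter held 1 ETS match, NDUFB11 held none of the motifs searched, UQCRFS1 held an NRF1 and a YY1 match and NDUFS1 an ETS and a YY1 match. The promoter of NDUFA8, which was higher in both lines, is available and not printed. It held the NRF1 motif and no ETS or YY1 match, so the NRF1 motif lay in promoters of both directions. A promoter was available for 65 members, with its start at the 5′ end of the annotated gene for 62 and inside the gene for NDUFB11, ATP5MC2 and ATP5PF. Of the 65, 24.6% held the NRF1 motif, against 11.7% of 11182 promoters of genes tested and 6.28% of all 27305 promoters. For the ETS motif the shares were 30.8%, 19% and 10.7%, and for the YY1 motif 33.8%, 10.2% and 6.82%. By complex, the NRF1 motif was found in 6 of 31 promoters of complex I, 2 of 3 of complex II, 4 of 7 of complex III, none of 10 of complex IV and 4 of 14 of complex V. A heat shock element (TTC, GAA and TTC, each 2 bases apart) was found in none of the 65, in 0.322% of promoters of genes tested and in 0.487% of all promoters. TATAAA was found in 9.23% of the members' promoters, 5.66% of those of genes tested and 12% of all. These matches describe the letters in these windows only.

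The 80 genes lie on 22 chromosomes, with 10 on chromosome 19 and 3 on X, and 33 overlap another annotated gene. NDUFB11 overlaps RBM10 and UQCRQ overlaps GDF9 on the opposite strand, and NDUFS1 overlaps the pseudogene GCSHP3. NDUFA2 overlaps TMCO6, NDUFB2 overlaps NDUFB2-AS1 and NDUFS6 overlaps MRPL36, also on opposite strands. The A549 calls of NDUFA2, NDUFB2, NDUFS6, NDUFB11 and NDUFC2, which held under all 22 alternatives, are therefore of overlapping genes. No label says if counting was stranded, and reads of overlapping genes cannot be told apart without it. UQCRHL is an intronless near-copy of UQCRH, and reads may be divided between them.

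The calls within complexes I, III and V were also counted by role, against 13.3% of all genes higher and 26.9% lower in A549 and 13.7% and 24.2% in 293T. Of the 7 core subunits of complex I, none was higher and 1 lower in exposed A549, and none was higher and 2 lower in exposed 293T, with medians of 0.01 and -0.02. Of the 29 accessory subunits, 10 were higher and 1 lower in A549 and 7 were higher and none lower in 293T, with medians of 0.05 and 0.08. In complex III the 4 redox and core proteins had none higher and 3 lower in A549 and none higher and 2 lower in 293T, with medians of -0.12 and -0.09. The 6 small subunits had 2 higher and none lower in A549 and 1 higher and none lower in 293T, with medians of 0.12 and 0.06. In complex V no subunit of either part was called lower. The 9 of the catalytic head and stator had none higher in A549 and 1 in 293T, ATP5F1B, with medians of 0.04 and 0.01. The 8 of the membrane part had 2 higher in A549 and 1 in 293T, with medians of 0.09 and 0.06. ATP5IF1 was counted in neither part. The genes of the core subunits also had longer exon sequence, with medians of 1560 against 1313 bases in complex I and 1903 against 1137 bases in complex III. In complex V the medians were 1500 bases for the head and stator and 885 for the membrane part. The part of length in these counts was not tested.

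The members' median fold change fell from bin to bin of exon length in A549. In 293T it was alike in the bins under 2 kb and lower in the longer bins. In A549 the median log2 fold change was 0.08 for the 32 members under 1 kb, 0.05 for the 26 from 1 to 2 kb, 0.04 for the 11 from 2 to 4 kb and -0.02 for the 10 longer ones. For all genes tested the medians in the same bins were 0.00, -0.02, -0.05 and -0.04. In 293T the members' medians were 0.06, 0.06, 0.02 and -0.01, and those of all genes were 0.00, -0.04, -0.05 and -0.02. Of the 32 short members, 9 were higher and none lower in A549 (28.1%), against 11% higher and 10.1% lower among all 849 short genes, and in 293T 7 were higher and none lower (21.9%), against 11.7% higher and 12% lower. The members' median length was 1299 bases and that of all genes tested 3950 bases. The part of length in the members' median was not tested.

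**Figure D3:**
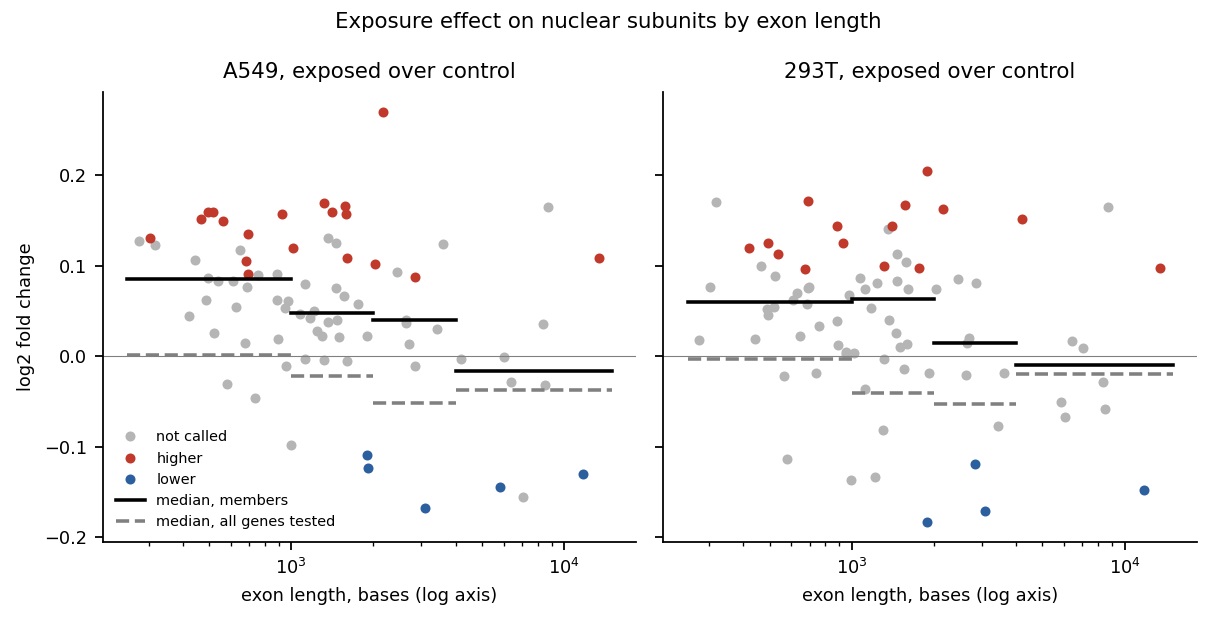
Log2 fold change of exposed over control for the 79 members tested against the length of their exons (log axis, bases), in A549 (left) and 293T (right), with points coloured by call. Solid lines are the members' medians and dashed lines the medians of all genes in the bins under 1 kb, 1 to 2 kb, 2 to 4 kb and longer; the members' line lies above the dashed line in each bin.

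Summed over each complex, the FPKM of exposed cells exceeded that of controls in every library for complexes I, IV and V in both lines on the deposited scale. Complex I summed to 2131 to 2170 FPKM in exposed A549, against 1989 to 2082 in control A549, and to 2993 to 3003 in exposed 293T, against 2856 to 2891 in control 293T. Complex IV summed to 1783 to 1833 FPKM in exposed A549, against 1690 to 1736 in control A549, and to 2152 to 2241 in exposed 293T, against 2056 to 2112 in control 293T. Complex V summed to 1835 to 1873 FPKM in exposed A549, against 1732 to 1807 in control A549, and to 2639 to 2698 in exposed 293T, against 2568 to 2611 in control 293T. These sums were 1.05 times control for complex I, 1.06 for complex IV and 1.05 for complex V in A549, and 1.04, 1.06 and 1.03 times control in 293T. With library sums set equal without the mitochondrially encoded genes the ratios were 1.02, 1.03 and 1.02 in A549 and 1.03, 1.04 and 1.02 in 293T, and the groups then overlapped for complexes I and V in A549 and for complex V in 293T. The sums of complexes II and III overlapped between exposed and control A549, with ratios of 1.05 and 1.00. In 293T the sums of complex II overlapped (ratio 1.02), and those of complex III did not, at 993 to 997 FPKM in exposed and 972.1 to 992.6 in control cells (ratio 1.01). With the equal sums complex III was 0.976 times control in A549, without overlap, and 0.995 times in 293T, with overlap. Complex II then had ratios of 1.03 and 1.00, with overlap in both lines. All 80 genes together took 0.766% ± 0.00439 of the counts in exposed A549 and 0.744% ± 0.0106 in control A549 (SD, n = 3 each), and 1.05% ± 0.00299 in exposed 293T and 1.02% ± 0.0052 in control 293T (SD, n = 3 each). No p-value is given for a sum over the members.

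The 13 subunits encoded in mitochondrial DNA took a smaller share of the counts in exposed cells. Their share of counts was 7.82% ± 0.135 in exposed A549 and 8.83% ± 0.464 in control A549, and 4.42% ± 0.042 in exposed 293T and 4.98% ± 0.202 in control 293T (SD, n = 3 each), with summed FPKM 0.886 and 0.885 times control. Of the 13, 6 were lower and none higher in exposed A549, and 7 were lower and none higher in exposed 293T, where 26.9% and 24.2% of all genes were lower. ND2 of complex I (-0.22 and -0.18) and ATP6 of complex V (-0.16 and -0.25) were called in both lines, and ATP8 in 293T (-0.35). The ATP6 call in A549 ended under 6 of 22 alternatives (adjusted p up to 0.329): without the filter, with quantile normalization, with median centring, and without exposed replicate 2 or control replicate 2 or 3 of A549. The ND2 calls ended with quantile normalization in A549 and without the filter in 293T. ND1, a core subunit of complex I, averaged 3298 ± 162 FPKM in exposed A549 and 4919 ± 182 in control A549 (SD, n = 3 each; log2 fold change -0.58, adjusted p = 5.11e-06 with limma), and 2071 ± 52.5 in exposed 293T and 2977 ± 204 in control 293T (SD, n = 3 each; -0.52, adjusted p = 3.01e-05 with limma). Both ND1 calls held under all 22 alternatives. COX1, COX2 and COX3, the catalytic core of complex IV, had log2 fold changes of -0.14, -0.25 and -0.21 in A549 and -0.26, -0.18 and -0.22 in 293T, all called, and all 6 calls ended with quantile normalization, which gives the most abundant genes of all libraries nearly the same values. The COX1 call in A549 also ended without the filter, with median centring, and without exposed A549 replicate 1 or control A549 replicate 2. The medians of the mitochondrially encoded subunits were -0.13 in complex I, -0.21 in complex IV and -0.03 in complex V in A549, and -0.06, -0.22 and -0.30 in 293T; CYTB, the sole one in complex III, had -0.08 and -0.02 and was not called. A lower share of these counts raises all other FPKM of a library. With sums set equal without them the members' median log2 fold change was 0.02 in A549 and 0.03 in 293T, instead of 0.06 and 0.05. The median of all genes moved as well, to -0.07 and -0.05 from -0.04 and -0.03, so the members' median stayed above it. The part of this scaling in the members' fold changes was not tested.

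**Figure D4:**
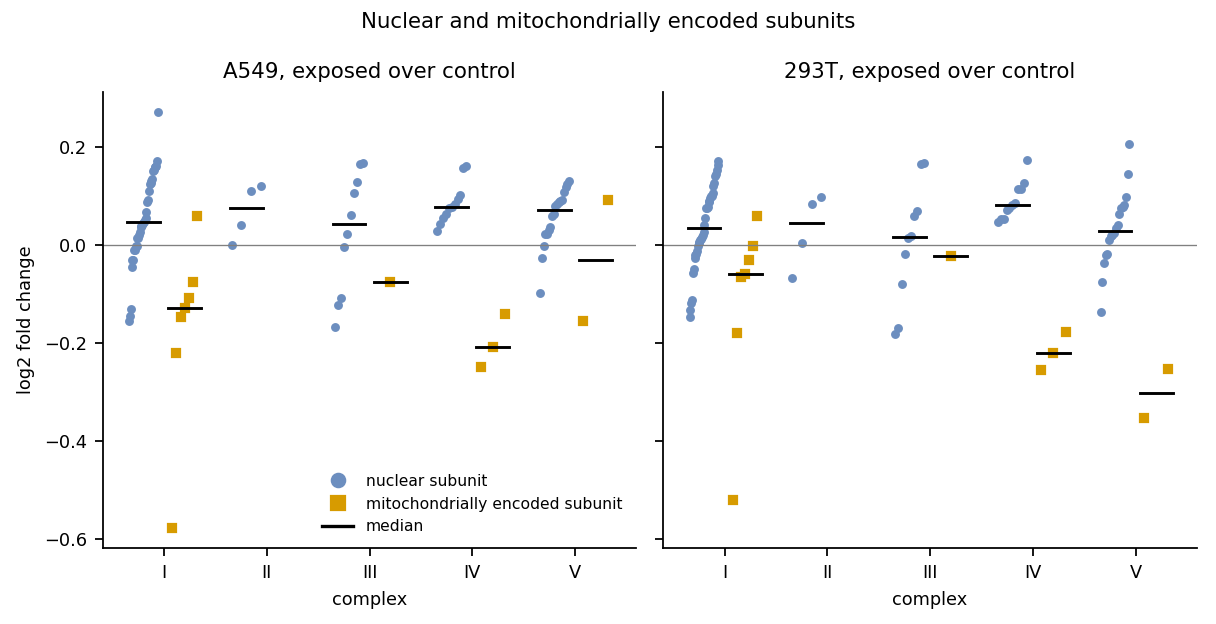
Log2 fold change of exposed over control for nuclear subunits (blue circles) and mitochondrially encoded subunits (orange squares) of each complex, in A549 (left) and 293T (right), with black lines at the medians. The nuclear medians lie between 0.02 and 0.08 and the mitochondrial medians between -0.30 and -0.02; complex II has no mitochondrially encoded subunit, and the nuclear median of complex III in 293T becomes -0.01 with quantile normalization or with equal sums without the mitochondrially encoded genes.

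The exposure effects of the 2 lines were compared directly with an interaction term. None of the 79 members differed between the lines at an adjusted p under 0.05 with limma, while 12.5% of all genes did, 5.51% with a higher and 7.03% with a lower value in A549. At an unadjusted p under 0.05 there were 6 members (7.59%), against 27.2% of all genes, and voom on recovered counts also called none. The difference, A549 minus 293T, ran from -0.18 for ATP5IF1 (95% interval -0.37 to 0.00) to 0.18 for NDUFV2 (-0.03 to 0.39). These intervals use the 8 residual degrees of freedom only and are wider than the limma test implies. That test gave ATP5IF1 an unadjusted p of 0.0396 and an adjusted p of 0.158. For UQCRFS1 the difference was 0.00 (SE 0.05) and for UQCRQ 0.00 (SE 0.07). ATP5IF1 had 18.6, 16.4 and 17.4 FPKM in exposed A549 and 15.6, 18.4 and 17.7 in control A549, groups that overlapped. Leaving out 1 library gave 1 call in 3 cases: ATP5IF1 without control A549 replicate 1 (-0.25, adjusted p = 0.0337), SDHB without control A549 replicate 2 (0.14, adjusted p = 0.0384) and ATP5MC3 without exposed 293T replicate 1 (0.13, adjusted p = 0.0471, all with limma). A difference that missed the threshold does not show equal effects.

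Between the lines without exposure, the nuclear subunits were mostly less abundant in A549. In control A549 against control 293T, 66 of 79 members were lower (83.5%), against 55.9% of all genes, and 6 were higher (7.59%), against 32.4% of all genes, and 88.3% of all genes were called in either direction. The members' median log2 fold change was -0.53 and that of all genes -0.25. The median of all genes moved to -0.15 with quantile normalization and to -0.39 as TPM, where the members' medians were -0.45 and -0.66. By complex the medians were -0.54, -0.61, -0.51, -0.45 and -0.58 for complexes I to V. Summed FPKM of all members in control A549 was 0.722 times that in control 293T, from 0.643 times for complex III to 0.826 times for complex IV, while the mitochondrially encoded subunits summed to 1.69 times.

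The largest differences were in ATP synthase and complex III. ATP5IF1 had 15.6, 18.4 and 17.7 FPKM in control A549, against 66.2, 62.7 and 65.4 in control 293T (log2 fold change -1.85, SE 0.06, adjusted p = 2.51e-12 with limma). ATP5PO, which joins the stator to the catalytic head, had 86.6, 99.9 and 96.5 FPKM in control A549 and 270, 275 and 272 in control 293T (-1.52, SE 0.04). ATP5PB, the stator stalk, had 52.5, 52.2 and 52.2 FPKM in control A549 and 134, 136 and 136 in control 293T (-1.35, SE 0.03). The groups of all 3 were far apart. UQCR10, a small subunit near cytochrome c1, had 44.7, 49.6 and 47.6 FPKM in control A549 and 139, 135 and 131 in control 293T (-1.49, SE 0.04). NDUFA7, NDUFC1, NDUFA3 and NDUFA11 of complex I followed with log2 fold changes of -1.34, -1.13, -1.01 and -1.01, with UQCRHL at -1.31 and UQCRH at -1.08. UQCRH and UQCRHL resemble each other in sequence, so their values are not independent.

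The 6 members that were higher in control A549 than in control 293T came from complexes I, III, IV and V. UQCRFS1 had 57.5, 57.3 and 56.4 FPKM in control A549, against 35.1, 35.3 and 36.8 in control 293T (log2 fold change 0.66, SE 0.03, adjusted p = 4.64e-10 with limma). COX6B1, which joins the monomers of complex IV, averaged 357.4 ± 11 FPKM in control A549 and 243.9 ± 6.42 in control 293T (SD, n = 3 each; 0.55, SE 0.03). ATP5PD of the ATP synthase stator averaged 151.6 ± 2.68 FPKM in control A549 and 112.7 ± 12 in control 293T (SD, n = 3 each; 0.43, SE 0.06). Their libraries did not overlap, as was so for 33.2% of all genes with control A549 higher. NDUFS8, an iron-sulfur core subunit, had a log2 fold change of 0.41 (SE 0.03) and NDUFS4, an accessory subunit of the same arm, 0.26 (SE 0.05). CYC1 had 90.6, 87 and 90.3 FPKM in control A549 and 86, 79.3 and 81.2 in control 293T (0.12, SE 0.04, adjusted p = 0.011 with limma), and that call ended as TPM, where the estimate was -0.01, and without control 293T replicate 2.

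**Figure D5:**
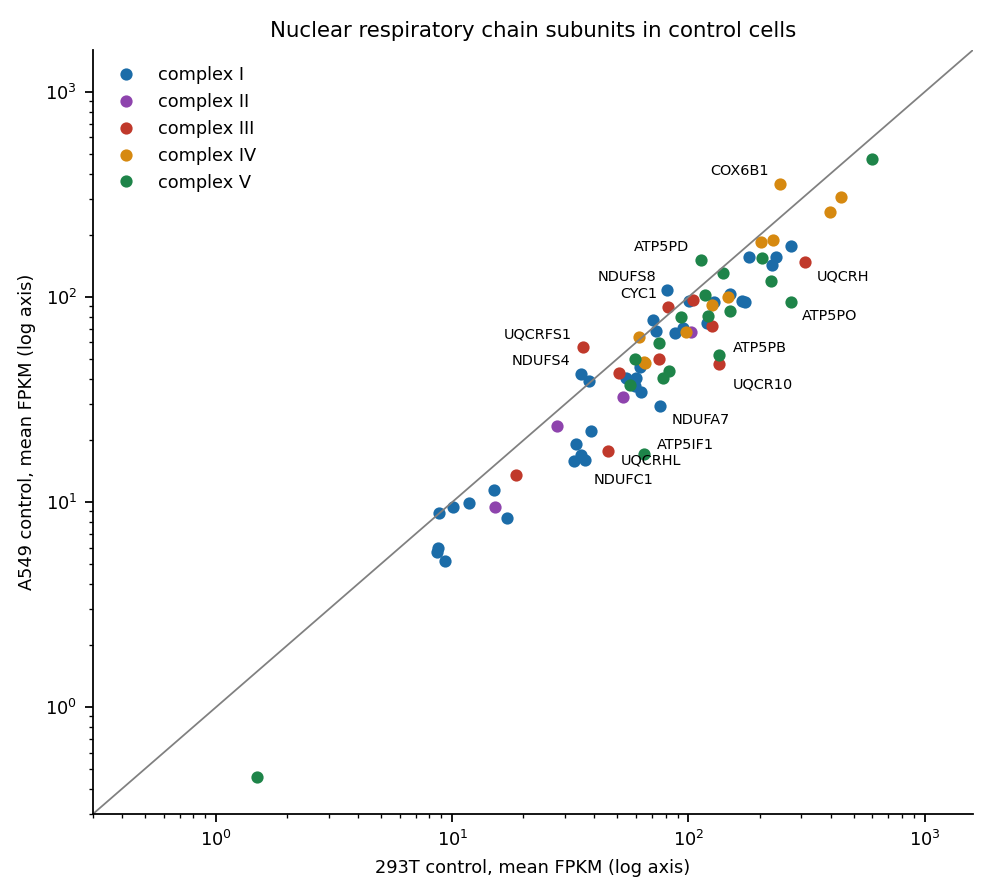
Mean FPKM of the 79 members tested in control A549 (vertical, log axis) against control 293T (horizontal, log axis), coloured by complex, with the line of equal level. Most points lie below the line, with ATP5IF1, ATP5PO, UQCR10 and ATP5PB among the farthest, and the 6 members called higher in control A549 are labelled above it; the point at the lower left is ATP5F1E.

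Factors that build the complexes and express mitochondrial DNA were counted from lists chosen for this pathway. Of 50 assembly factors tested, 7 were higher and 11 lower in exposed A549, and 6 higher and 9 lower in exposed 293T, with median log2 fold changes of -0.01 and -0.02, against -0.04 and -0.03 for all genes. Of all genes, 13.3% were higher and 26.9% lower in A549 and 13.7% and 24.2% in 293T, and the shares of the assembly factors were near these. NDUFAF4, which helps assemble complex I, averaged 9.22 ± 0.247 FPKM in exposed A549 and 7.14 ± 0.802 in control A549 (SD, n = 3 each; log2 fold change 0.33, adjusted p = 0.00182 with limma). In 293T it averaged 21.8 ± 1.41 FPKM in exposed and 19.1 ± 0.933 in control cells (SD, n = 3 each, log2 fold change 0.18, adjusted p = 0.0471 with limma). That 293T call held under 9 of 22 alternatives (adjusted p up to 0.168). UQCC1 (0.16 and 0.15), TMEM70 (0.16 and 0.19) and COA1 (0.15 and 0.13) were also called higher in A549 and 293T. ATPAF2, which chaperones the alpha subunit of ATP synthase, averaged 4.7 ± 0.234 FPKM in exposed A549 and 5.62 ± 0.111 in control A549, and 3.55 ± 0.156 in exposed 293T and 4.57 ± 0.0473 in control 293T (SD, n = 3 each; -0.22 and -0.29, adjusted p = 0.00183 and 0.000385 with limma). SDHAF1, which matures SDHB, had log2 fold changes of -0.41 and -0.25, and COX20, which escorts COX2, -0.19 and -0.30 in A549 and 293T, all called. TACO1, which activates translation of COX1, was lower in both lines (-0.12 and -0.18). The A549 calls of TACO1 and COX20 held under 12 and 16 of 22 alternatives (adjusted p up to 0.289 and 0.0853), and the 293T call of SDHAF1 under 19 (up to 0.084). TACO1 lost it without exposed replicate 1 or 3 or control replicate 2 or 3 of A549 or control replicate 1 of 293T, COX20 without exposed replicate 1 or 3 or control replicate 1 of A549, and SDHAF1 without exposed replicate 2 or control replicate 2 or 3 of 293T. UQCC3, an assembly factor of complex III, was called in 293T (-0.27) and not in A549 (-0.11), and SCO2, a copper chaperone of complex IV, was called in A549 (-0.43) and not in 293T (-0.12). The difference between the lines was not called for UQCC3 (0.16, adjusted p = 0.133 with limma), and that of SCO2 is given below.

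Of 19 genes of mitochondrial gene expression and biogenesis, 3 were higher and 4 lower in exposed A549, and 3 were higher and 4 lower in exposed 293T, with medians of 0.03 and -0.06, again near the shares of all genes (13.3% and 26.9%, 13.7% and 24.2%). GABPB2, a subunit of the ETS factor GABP, averaged 1.56 ± 0.114 FPKM in exposed A549 and 0.948 ± 0.119 in control A549, and 2.89 ± 0.133 in exposed 293T and 2.04 ± 0.0953 in control 293T (SD, n = 3 each; log2 fold change 0.40 and 0.36, adjusted p = 0.000169 and 0.000531 with limma). POLRMT, the mitochondrial RNA polymerase, averaged 10.1 ± 0.26 FPKM in exposed A549 and 13.4 ± 0.992 in control A549, and 16.3 ± 0.864 in exposed 293T and 20.2 ± 0.448 in control 293T (SD, n = 3 each; -0.38 and -0.29, adjusted p = 0.000162 and 0.00115 with limma). POLG2, the accessory subunit of the mitochondrial DNA polymerase, had -0.41 and -0.26, and PPARGC1B, a coactivator of respiratory genes, -0.41 and -0.33, all called. NRF1, with log2 fold changes of -0.15 and -0.10, and TFAM, with 0.06 and 0.08, were not called in either line. Neither were GABPA, the DNA-binding subunit of GABP (0.28 and 0.21), and the coactivator PPARGC1A (0.03 and -0.10).

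The carriers and enzymes that surround the chain were counted in the same way. Of 17 genes of electron carriers and ubiquinone synthesis, none was higher and 5 lower in exposed A549, and 1 was higher and 7 lower in exposed 293T, with medians of -0.05 and -0.02, where 26.9% and 24.2% of all genes were lower. DHODH, which feeds electrons from pyrimidine synthesis into ubiquinone, averaged 2.42 ± 0.071 FPKM in exposed A549 and 4.06 ± 0.215 in control A549, and 1.92 ± 0.175 in exposed 293T and 3.02 ± 0.339 in control 293T (SD, n = 3 each; log2 fold change -0.57 and -0.46, adjusted p = 4.94e-05 and 0.000293 with limma). COQ8A, COQ8B and COQ9, needed to make ubiquinone, were also lower in both lines, from -0.22 to -0.40, and COQ5, a methyltransferase of the same pathway, was called lower in 293T (-0.21) and not in A549 (-0.09). CYCS, which encodes cytochrome c, had -0.05 and 0.01 and was not called. Of 13 genes of the citric acid cycle, none was higher and 3 lower in A549 and 1 higher and 1 lower in 293T, with medians of -0.03 and -0.04, beside the same 26.9% and 24.2% of all genes lower, and OGDH, a subunit of the 2-oxoglutarate dehydrogenase complex, was lower in both (-0.21 and -0.25). DLD (-0.20 and -0.08) and SUCLG2 (-0.10 and -0.06) were called lower in A549 and were not called in 293T, and SUCLA2, a subunit of succinyl-CoA synthetase like SUCLG2, was called higher in 293T (0.01 in A549 and 0.11 in 293T). By the test of the difference between the lines, none of the 13 citric acid cycle genes was called. None of the 17 carrier and ubiquinone genes was called by that test either, which called 12.5% of all genes. With so few genes listed, these counts do not show equal effects in the lines. The SUCLG2 call held under 13 of 22 alternatives (adjusted p up to 0.291) and ended, among others, without exposed replicate 1 or 2 or control replicate 1 or 3 of A549 or control replicate 2 of 293T. The SUCLA2 call held under 16 (up to 0.11) and ended without any 1 of the exposed replicates or control replicate 1 or 2 of 293T. Of 9 subunit variants that the symbol rule leaves out, 5 were in the table and 3 were expressed enough to test, and none was called: NDUFAB1, the acyl carrier protein, had log2 fold changes of -0.01 and 0.07, and COX7A2L, 0.07 and -0.08.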

How the data were processed

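RNA from 12 libraries (4 GEO samples with 3 library columns each) was analysed. The authors deposited 1 table of FPKM values for 26348 genes. Per the submitters' processing notes, fastp, HISAT2, HTSeq and GRCh38 were used; versions and the strand setting are not stated there. Whole counts were recovered from the deposited FPKM for 100% of genes (tolerance 0.01 counts), 37171616 to 38883963 per library; depth therefore differed little. Every value column matched a sample title.

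Values entered limma 3.58.1 (R 4.3.3) as log2(FPKM + 1), with an intensity trend, 1 mean per group, 8 residual degrees of freedom, two-sided tests and Benjamini-Hochberg adjustment over the 13811 genes with at least 0.5 FPKM in at least 3 libraries; 12537 genes were left out. The pseudocount understates changes of low genes. Tables were handled with Python 3.11.15, pandas 2.3.3 and numpy 2.4.6, and the test was checked on simulated data.

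Alternatives tried were a filter on a mean of at least 1 FPKM or none, a pseudocount of 0.1, quantile normalization, median centring, equal sums without mitochondrially encoded genes, TPM, voom on recovered counts, each line alone, a replicate block, and leaving out each library. The members and lists were chosen with earlier results of these data known. Named were members called after exposure, up to 10 with the largest fold change between controls, the highest and lowest of each complex, all of complex II, members that failed the filter, and up to 4 genes per list and line with the smallest adjusted p. CYCS, PPARGC1A, TFAM, NRF1 and GABPA were always named. ATP5F1E, ATP5MC3, ATP5PD, COX6B1, NDUFS4, NDUFS8, NDUFV2, NDUFAB1, COX7A2L, ATP8, CYTB, UQCC1, TMEM70 and COA1 were named after their values were seen. Positions and promoters came from RefSeq (GRCh38.p14). The values of 1 gene are not reported here.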

Additional observations from a re-analysis of the deposited data

Results flagged for a closer look

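Of the genes named, SCO2, a copper chaperone needed to build complex IV and no member of the 80, differed between the lines in its exposure effect by a test of the difference itself. It had 6.95, 6.19 and 7.24 FPKM in exposed A549, against 9.71, 9.34 and 9.4 in control A549, and 15, 14.3 and 16 FPKM in exposed 293T, against 16.4, 15.8 and 17.3 in control 293T. The exposed libraries lay below the controls in A549 and overlapped them in 293T. The difference of the log2 fold changes, A549 minus 293T, was -0.308 (SE 0.0788, adjusted p = 0.0247 with limma).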

How the results depend on the processing

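In A549 the 19 members called higher became 11 with quantile normalization, 37 with median centring and 10 with sums set equal without the mitochondrially encoded genes, and 12 to 21 when 1 library was left out. Of all genes, 17.4%, 19.5% and 10.4% were higher under these scalings, and 10.9% to 13.7% when 1 library was left out. The 5 called lower became 3 without the filter, 1 with median centring and 3 as TPM, and 2 to 5 when 1 library was left out. Here 13%, 18.3% and 22.8% of all genes were lower, and 21.7% to 27.9% when 1 library was left out. In 293T the 15 called higher became 9 without the filter and 7 with the equal sums, and 5 to 17 when 1 library was left out. The shares of all genes higher were 6.61% and 11.4%, and 10.4% to 14.2% when 1 library was left out. The 4 called lower became 7 with the equal sums, and 3 to 6 when 1 library was left out. The shares of all genes lower were 27.4%, and 18.2% to 25.6% when 1 library was left out. For the difference of the effects, the counts of 0 became 1 lower with quantile normalization (ATP5F1B) and 0 to 1 when 1 library was left out. The baseline counts of 66 and 6 kept within 1.5 times throughout. Quantile normalization turned the sign of ATP5F1B in A549 (-0.092), of COX3 (0.010) and ND2 (0.030) in A549, of NDUFS5 (-0.026) and COX1 (0.010) in 293T, of the difference for ND1 (0.31), and of NDUFB4 (0.0036), ATP6 (-0.050), COX2 (-0.32) and ND2 (-0.14) between the controls, and TPM that of CYC1 (-0.00854) between the controls. The cause was not tested. Counting NDUFA4 with complex I, an alternative chosen after seeing the data, left the medians of complexes I and IV at 0.05 and 0.08 in A549 and at 0.04 and 0.08 in 293T. Same-numbered libraries did not deviate together (correlations from -0.141 to 0.000139), so the replicate block is not a pairing. With that block 17 members were higher and 5 lower in A549 and 17 higher and 5 lower in 293T. Of all genes, 12.9% were higher and 26.4% lower in A549 in that fit, and 13.1% and 23.9% in 293T. With voom on the recovered counts, 17 members were higher and 5 lower in A549 and 16 higher and 5 lower in 293T, among 1858 and 3668 of all genes in A549 and 1964 and 3309 in 293T. With 3 libraries per group, a member that missed the threshold is not shown to be unchanged.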
